A study of Mus musculus with 3 samples.

Results

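Of the 49997 genes in the count table, 8 sterol transcripts were followed between YTHDF2 immunoprecipitation (IP) and input RNA in mouse embryonic stem cells (ESCs). They were taken by name, as genes of one pathway, and comprised the synthesis enzymes Hmgcs1 and Sqle, the SREBP system genes Srebf1, Srebf2, Scap and Insig1, and the liver X receptor (LXR) genes Nr1h2 and Nr1h3. All 8 were among the 19601 genes with enough counts to be tested. RNA immunoprecipitation sequencing (RIP-seq) recovers RNA held by a protein with an antibody and sequences it beside the starting RNA, here to ask which transcripts YTHDF2 holds. YTHDF2 reads N6-methyladenosine (m6A) and promotes the decay of RNAs that carry it.

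One input library and 2 YTHDF2 IP libraries were compared. All 3 came from E14 cells, a mouse ESC line, after 24 h of Dox (doxycycline), and per the study's description of its cell system the cells carry a Dox-inducible Dux transgene, which drives a 2-cell-like (2C-like) state, and a tdTomato transgene under the MERVL promoter. Every library, the input included, was therefore Dox-treated, and neither an untreated sample nor an IP with a control antibody was analysed here. Separate cultures are not stated for the 2 IP libraries, so p-values measure only the spread between these libraries, which may be technical, and the spread of the unreplicated input was not measured.

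Cells make cholesterol from acetyl-CoA through mevalonate and squalene. When sterols are scarce, SCAP escorts the membrane-bound SREBP factors from the endoplasmic reticulum to the Golgi, where proteases release the part that switches on the synthesis genes, and when sterols are plentiful INSIG proteins hold SCAP back. LXRs answer to oxysterols and switch on genes of cholesterol efflux and fatty acid synthesis, Srebf1 among them.

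The libraries held 36986994 counts (input), 35259827 counts (IP replicate 1) and 35888743 counts (IP replicate 2). A floor of 3 counts corresponded to between 0.0811 and 0.0851 CPM (counts scaled to library size, in the usual per-million unit), and floors cover counting error only. All 8 ESC markers checked, from Tfcp2l1 to Dppa5a, were well expressed in the input, with RPKM (CPM per kilobase of exon) from 72.4 to 2820. The 5 2C-like markers summed to 780 RPKM in the input, 1290 RPKM in IP replicate 1 and 1280 RPKM in IP replicate 2, and their part in the results below was not tested. The 5 primitive endoderm markers summed to between 3.45 and 4.82 RPKM, with single genes in the input from 0.26 to 1.2 RPKM. Of the 5 fibroblast markers, 3 were above the floor in the input and their sum of 15.9 RPKM came almost wholly from Thy1 (15.5 RPKM), while Dcn was at 0. In bulk RNA a smaller number of cells with a transcript and less of it per cell cannot be told apart.

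The letters GGACT are the commonest form of the sequence in which m6A is placed. Each of the 8 transcripts held it at least once on the sense strand of its exons, as did 88.2% of all tested genes, so holding it did not set them apart. The copy nearest to the stop codon is printed below for each gene, since m6A is known to gather around stop codons. Sequences were read from RefSeq transcripts on GRCm38.p6, the assembly of mm10, with GGACT in capitals and 8 bases on either side. Only the sense strand was searched, and a match describes letters and is not a measured m6A site.
Hmgcs1: acacagaaGGACTtacgcccg
Sqle: tccacagtGGACTtgaggacc
Insig1: ggaggcaaGGACTgcttacct
Srebf1: ctactgctGGACTgccagcag
Srebf2: tgcattctGGACTtgatagac
Scap: gagaaactGGACTgaaggcag
Nr1h2: ttgaagatGGACTcttcacct
Nr1h3: ttcctcaaGGACTtcagttac

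Of these copies, 4 lay in a 3′ UTR and 4 in coding sequence. Distances run from the A of GGACT to the last base of the stop codon. The Sqle window (chr15:59330988-59331008, plus strand) had its motif 81 bases after the stop codon in exon 11 of 11. In Insig1 (chr5:28076970-28076990, plus strand) the distance was 160 bases after the stop codon, in exon 5 of 5. The Srebf2 window (chr15:82204363-82204383, plus strand) lay farther out in the 3′ UTR, 456 bases after the stop codon in exon 19 of 19. The Nr1h2 copy (chr7:44549927-44549947, minus strand) sat 48 bases after it, in exon 10 of 10. In those 4 genes the copy nearest to the stop codon thus lay in the last exon and beyond the reading frame. Srebf1 also held 1 copy in its 3′ UTR, farther from its stop codon than the copy printed.

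The Scap window (chr9:110384787-110384807, plus strand) spanned the end of the reading frame in exon 23 of 23. The A of its motif lay 4 bases before the last base of the stop codon, so GGACT overlapped the stop codon. In Srebf1 (chr11:60199967-60199987, minus strand) the motif lay 55 bases before the stop codon in exon 19 of 19. The Hmgcs1 copy (chr13:119705421-119705441, plus strand) was 170 bases before it, in exon 10 of 11. Nr1h3 had a single copy (chr2:91190210-91190230, minus strand), 391 bases before the stop codon in exon 7 of 10, the farthest upstream of the 8. Over merged exons the density of GGACT was lowest in Nr1h3 at 0.461 per kb and highest in Srebf2 at 1.42 per kb, beside a median of 1.01 per kb over all tested genes. Density did not order the IP values, since Srebf2, the densest of the 8, was also the lowest in IP relative to input, and across the 8 genes Spearman's rho between density and log2 fold change was −0.33 as a description.

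Srebf2 and Hmgcs1 were depleted from the YTHDF2 IP by just over 2-fold, Insig1, Srebf1 and Sqle were lower by less than 2-fold, Nr1h2 was slightly higher, and Scap and Nr1h3 did not pass the test. A gene was called enriched or depleted at an adjusted p under 0.05 and a fold change over 2 in edgeR's quasi-likelihood test. None of the 8 was enriched, with 15.0% of all tested genes enriched. Depletion was called for 2 of the 8, and for 13.0% of all tested genes. Counting any fold past the adjusted p, 5 of the 8 were lower, with 28.9% of all genes lower, and 1 was higher, with 28.4% of all genes higher. No member passed 2-fold in the higher direction at an unadjusted p under 0.05 in edgeR or in DESeq2. The median log2 fold change was −0.31 over the 8 genes and 0.01 over all tested genes. These calls rest on the close agreement of the 2 IP libraries, and with a dispersion fixed at 0.1, assumed because the input has no replicate, 0 of the 8 passed the adjusted p (1, Srebf2, at an unadjusted p under 0.05).

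**Figure D1:**
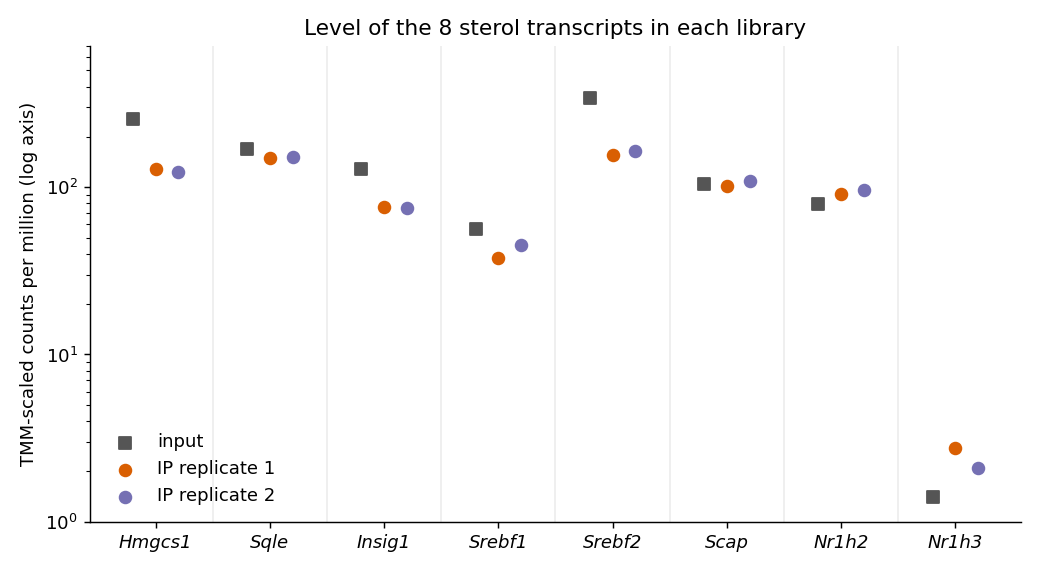
TMM-scaled CPM (log axis) of each of the 8 sterol transcripts in the input (squares) and the 2 IP libraries (circles), one point per library. Srebf2, Hmgcs1, Insig1, Srebf1 and Sqle lie lower in both IP libraries than in the input, Nr1h2 and Nr1h3 lie higher in both, and the Scap input value of 105 lies between its IP values of 102 and 109.

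Per length, the input levels ran from Hmgcs1 at 66.9 RPKM through Sqle at 59.0, Srebf2 at 58.4, Insig1 at 46.6, Nr1h2 at 33.3, Scap at 21.4 and Srebf1 at 8.55 to Nr1h3 at 0.624 RPKM. Sqle and Srebf2 differ there by less than the 7.33% coefficient of variation estimated between the IP libraries, and no spread is known for the input itself. In both IP libraries the order was Sqle, Nr1h2 and Hmgcs1 from the top, and Scap, Srebf1 and Nr1h3 at the bottom. Insig1 (29.6 and 29.0 RPKM in IP replicates 1 and 2) and Srebf2 (28.2 and 30.0 RPKM) changed places between the 2 IP libraries, so their order in IP is not settled.

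Srebf2, which encodes SREBP2, the main activator of cholesterol synthesis genes, spans chr15:82147269-82205379 on the plus strand. It had 12143 counts in the input against 5584 and 6057 in IP replicates 1 and 2. Both IP libraries were lower than the input, with log2 ratios of −1.15 and −1.05. The fitted log2 fold change was −1.10 ± 0.0584 (SE, 95% interval −1.22 to −0.98), which is 2.15-fold lower in IP (edgeR adjusted p = 1.13e-18). This placed Srebf2 at the 15.6th percentile of all tested genes, the lowest of the 8. The interval reached just inside the 2-fold line, and scaling to TPM gave −0.95, which is no longer past 2-fold.

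Srebf1 encodes SREBP1, which acts chiefly on fatty acid synthesis genes and is itself a target of LXR and SREBP. It lies at chr11:60199084-60224186 on the minus strand, and 1.82% of its exonic bases overlap Rai1 on the opposite strand, which matters here because strand was not used in counting. Its counts were 1984 in the input against 1360 and 1644 in IP replicates 1 and 2. Both IP libraries were lower than the input but they differed from each other more than those of Srebf2, with log2 ratios of −0.57 and −0.32. Srebf1 was 1.36-fold lower in IP (log2 fold change −0.44 ± 0.102, adjusted p = 0.000301). Srebf2 stood 6.84 times above Srebf1 per length in the input, and the log2 ratio of Srebf1 exceeded that of Srebf2 by 0.58 in IP replicate 1 and 0.73 in IP replicate 2, a difference that was not tested.

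Scap encodes the escort protein that binds SREBP and senses sterols. Across chr9:110333288-110384949 on the plus strand it collected 3726 counts in the input against 3697 and 4002 in IP replicates 1 and 2. The IP libraries lay on either side of the input, with log2 ratios of −0.04 and 0.05. The fitted log2 fold change was 0.01 (95% interval −0.14 to 0.15, adjusted p = 0.945), at the 50th percentile of all tested genes.

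Insig1 encodes the protein that retains SCAP in the endoplasmic reticulum and is itself switched on by SREBP. At chr5:28071412-28078662 on the plus strand it had 4560 counts in the input against 2761 and 2756 in IP replicates 1 and 2. The IP libraries were nearly equal and both below the input, with log2 ratios of −0.75 and −0.78. Insig1 was 1.7-fold lower in IP (log2 fold change −0.76 ± 0.0709, adjusted p = 5.56e-12), short of the 2-fold rule. Its paralogue Insig2, named here after its values were seen, had a log2 fold change of 0.24 ± 0.119 that did not pass the test (adjusted p = 0.0861), and its log2 ratio exceeded that of Insig1 by 0.96 and 1.05 in the 2 IP libraries. With the GC trend removed Insig2 was at 0.62 and passed the test (edgeR adjusted p = 5.73e-05), and it exceeded Insig1 by 1.28. Insig1 was the more abundant of the pair, 13.9 times Insig2 per length in the input.

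Hmgcs1 encodes the cytosolic HMG-CoA synthase, an early enzyme of the mevalonate arm, and is a standard SREBP2 target. Located at chr13:119690351-119708260 on the plus strand, it had 9092 counts in the input against 4640 and 4515 in IP replicates 1 and 2. Both IP libraries sat at about the 2-fold line, with log2 ratios of −1.0 and −1.06. The fitted log2 fold change was −1.03 ± 0.0607 (95% interval −1.15 to −0.91), 2.04-fold lower in IP (adjusted p = 1.69e-17). The 2-fold call is therefore a narrow one, and it was lost under total count scaling (−0.93), scaling to TPM (−0.88) and removal of the GC trend (−0.62).

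Sqle encodes squalene epoxidase, the first oxygen-requiring step of sterol synthesis. At chr15:59315092-59331193 on the plus strand it had 5992 counts in the input against 5417 and 5544 in IP replicates 1 and 2. The IP libraries lay close together and a little below the input, with log2 ratios of −0.17 and −0.16. The change of 1.12-fold passed the test (log2 fold change −0.17 ± 0.0626, adjusted p = 0.0203) and was the smallest of the 6 that did. It no longer passed in DESeq2 (adjusted p = 0.0974), under total count scaling (0.333), under scaling to TPM (0.829) or without the filter on low counts (0.0615).

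Nr1h2 encodes LXRβ, the receptor found in most tissues. Its span, chr7:44549616-44553968 on the minus strand, gathered 2814 counts in the input against 3281 and 3529 in IP replicates 1 and 2. Both IP libraries were above the input, with log2 ratios of 0.19 and 0.28. Nr1h2 was 1.18-fold higher in IP (log2 fold change 0.23 ± 0.0756, adjusted p = 0.00769), the only one of the 8 to pass the test in that direction. It did not pass in DESeq2 (adjusted p = 0.0633) or with the length trend removed (adjusted p = 0.103), and it turned to −0.47 (adjusted p = 2.48e-06) once the GC trend was removed.

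Nr1h3 encodes LXRα, known best from liver, gut and macrophages. Only 50 counts fell on it in the input against 100 and 77 in IP replicates 1 and 2 (chr2:91184061-91202829, minus strand), with 0.831% of its exonic bases overlapping Acp2 on the opposite strand. Both IP libraries were above the input, but the ratios were uneven at log2 0.96 and 0.57. The fitted log2 fold change of 0.78 ± 0.412 (95% interval −0.05 to 1.62) did not pass the test (adjusted p = 0.105), and scaling to TPM brought the adjusted p to 0.0487. Nr1h2 was 53.4 times as abundant as Nr1h3 per length in the input.

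**Figure D2:**
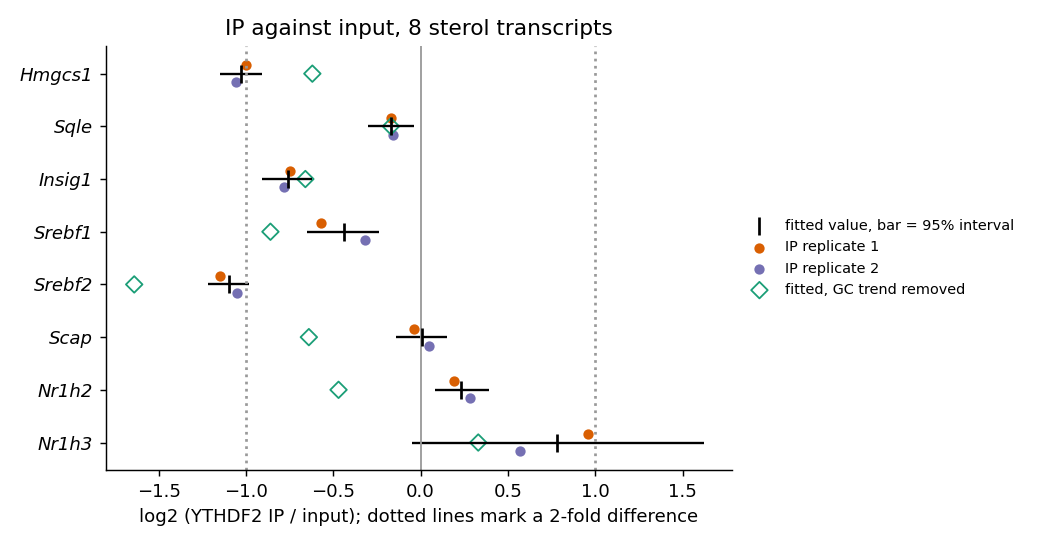
Log2 ratio of IP to input for the 8 sterol transcripts, with each IP library as a circle, the edgeR estimate as a vertical tick with its 95% interval, and the estimate after removal of the GC trend as a diamond. Only Srebf2 and Hmgcs1 have estimates past the dotted 2-fold line, and after removal of the GC trend only Srebf2 (−1.64) does.

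GC content moved with the comparison. Across all genes with a sequence, Spearman's rho between exonic GC content and log2 fold change was 0.31 (n = 19552, genes of the same 3 libraries), and the median log2 fold change went from −0.59 in the fifth of genes lowest in GC to 0.46 in the fifth highest. The 8 sterol transcripts covered much of that range, from Hmgcs1 at 43.7% GC to Nr1h2 at 60.7% GC, with rho of 0.50 over the 8 as a description. Srebf2 (58.8% GC) was low in IP although genes of its GC content were mostly high, and removing the trend took it from −1.10 to −1.64 (adjusted p = 6.6e-18). Hmgcs1 went the other way, from −1.03 to −0.62 (adjusted p = 9.31e-10). Scap (60.1% GC) was at −0.64 once the trend was removed (adjusted p = 6.86e-09), and Srebf1 (57.3% GC) was at −0.86 (adjusted p = 3.1e-08). Sqle (−0.17) and Insig1 (−0.66) hardly moved, and Nr1h3 was at 0.33 (adjusted p = 0.517). With the trend removed 7 of the 8 genes had values below 0, their median was −0.63 and 1 was depleted, beside 51.4% of all genes below 0, a median of −0.04 and 11.4% depleted under the same removal. The part of GC content in the results was not tested further.

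**Figure D3:**
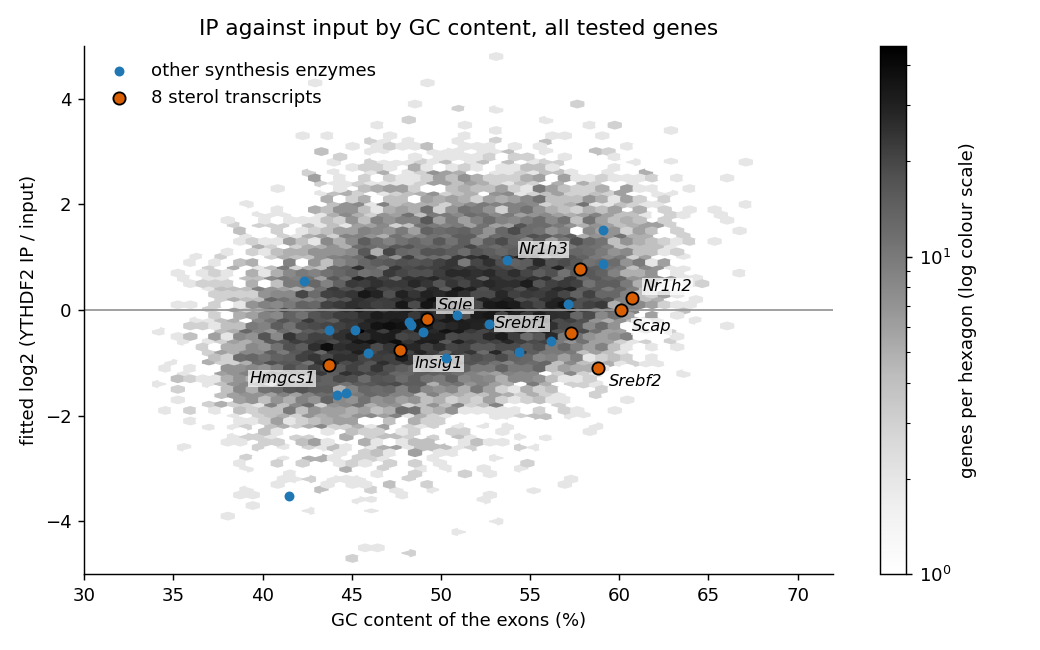
Fitted log2 ratio of IP to input against the GC content of the exons (%), with all tested genes as grey hexagons (shade on a log scale), the other cholesterol synthesis enzymes in blue and the 8 sterol transcripts in orange. The cloud rises with GC content, and Srebf2 at 58.8% GC lies at −1.10, where the fifth of genes highest in GC has a median of 0.46.

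The rest of the synthesis pathway was mostly lower in IP. Besides Hmgcs1 and Sqle the pathway list held 19 enzymes, of which 13 were lower (28.9% of all tested genes) and 4 higher (28.4% of all genes) past the adjusted p, and 2 did not pass. By the 2-fold rule 3 of the 19 were depleted and 1 was enriched, beside 13.0% and 15.0% of all tested genes. The median log2 fold change of the 19 was −0.37, and −0.29 with the GC trend removed. In the mevalonate arm, from acetyl-CoA to farnesyl diphosphate, 4 of the 7 enzymes other than Hmgcs1 were lower and 3 higher. The 3 that were higher are consecutive steps. Mvk (mevalonate kinase) had 1431 counts in the input against 4155 and 4297 in IP replicates 1 and 2, and was enriched with a log2 fold change of 1.52 ± 0.0805 (adjusted p = 6.6e-19). Pmvk (phosphomevalonate kinase) followed at 0.95 and Mvd (mevalonate decarboxylase) at 0.87, both past the test and short of 2-fold, although 34.4% of the exonic bases of Mvd overlap Gm51557 on the opposite strand. With the GC trend removed the 3 values were 0.96 for Mvk, 0.71 for Pmvk and 0.30 for Mvd, and none was past 2-fold.

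The next step, Idi1 (isopentenyl diphosphate isomerase), was the lowest of the whole pathway. It had 1036 counts in the input against 71 and 115 in IP replicates 1 and 2, a log2 fold change of −3.52 ± 0.192 (11.4-fold lower, adjusted p = 2.99e-17), and −2.95 with the GC trend removed. Hmgcs1 was the other depleted enzyme of this arm. Acat2 (−0.90), which shares 30.5% of its exonic bases with Gm20591 on the opposite strand, and Fdps (−0.79), which makes farnesyl diphosphate, were lower by less than 2-fold. With the GC trend removed Fdps was past 2-fold at −1.06 (edgeR adjusted p = 2.82e-12), and Acat2 was short of it at −0.99.

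In the sterol arm, from squalene to cholesterol, 9 of the 12 enzymes other than Sqle were lower (28.9% of all tested genes) and 1 was higher (28.4%) past the test, and 2 were depleted (13.0%). Lbr, which is both a sterol reductase and an inner nuclear membrane protein, was depleted at −1.57 ± 0.065, and Hsd17b7 was depleted at −1.60 ± 0.13. Msmo1 (methylsterol monooxygenase) was the enzyme that rose, with 4739 counts in the input against 7455 and 6759 in IP replicates 1 and 2 and a log2 fold change of 0.55 ± 0.068 (adjusted p = 1.17e-08), or 1.06 with the GC trend removed. Ebp, a sterol isomerase, did not pass (−0.10, adjusted p = 0.372). The other 7 enzymes that were lower had values between −0.81 for Nsdhl and −0.26 for Dhcr7. Over the 21 enzymes Spearman's rho with log2 fold change was 0.56 for GC content and 0.53 for GGACT density, given as a description of genes that share the same 3 libraries.

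**Figure D4:**
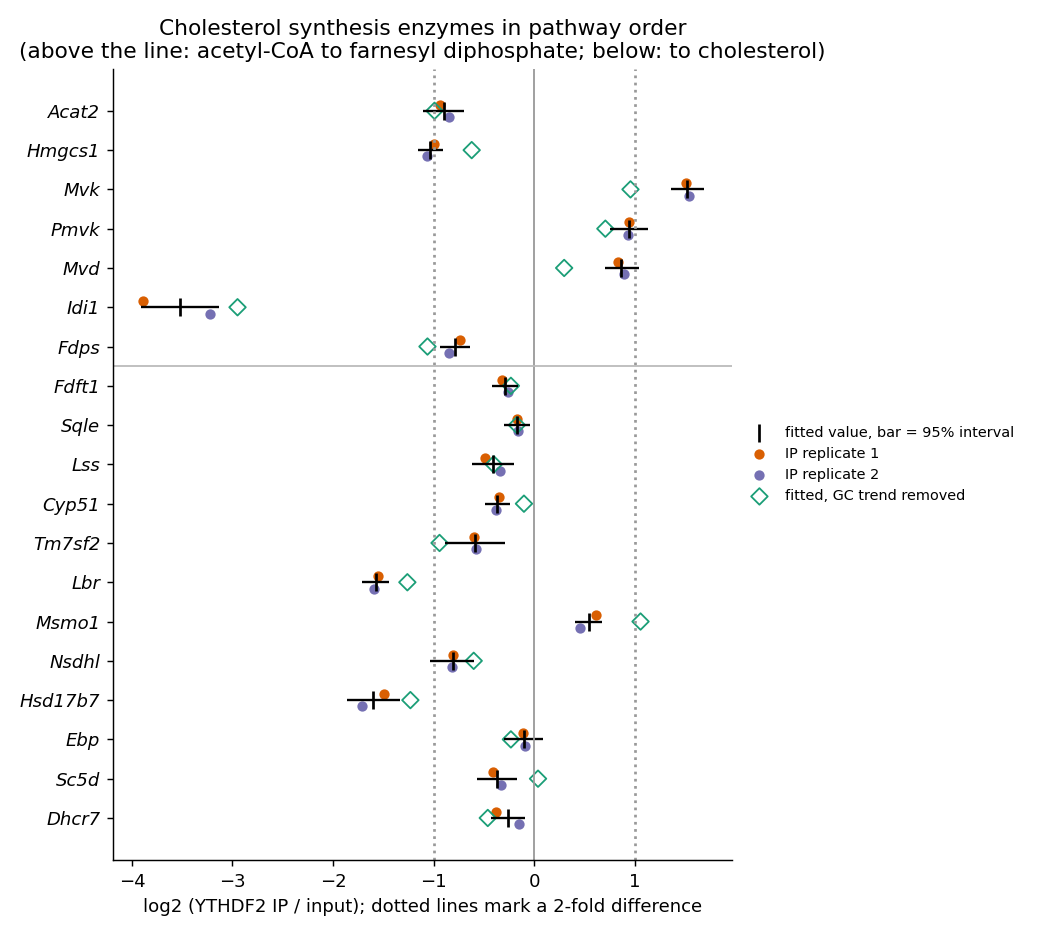
Log2 ratio of IP to input for cholesterol synthesis enzymes in pathway order, the mevalonate arm above the line and the sterol arm below it, with symbols as in the plot of the 8 transcripts. Mvk, Pmvk and Mvd lie to the right, and Idi1 lies farthest to the left at −3.52.

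The machinery that carries and cleaves SREBP held values on both sides. Of its 12 genes, 5 were higher (28.4% of all tested genes) and 4 lower (28.9%) past the test, and 2 were enriched (15.0%) and 2 depleted (13.0%), with called shares near those of all genes. The median log2 fold change was 0.16 (−0.09 with the GC trend removed). Without Srebf1, Srebf2, Scap and Insig1, 5 of the other 8 were higher and 1 was lower. Its depleted genes were Srebf2 and Mbtps2, which encodes the site-2 protease and had a log2 fold change of −1.62 ± 0.136, or −1.01 with the GC trend removed. The gene for the site-1 protease, Mbtps1, named after its values were seen, was higher at 0.85 ± 0.0527, and exceeded Mbtps2 by 2.44 and 2.50 in the 2 IP libraries, or by 1.64 in the fit with the GC trend removed. Rnf139, which encodes a ubiquitin ligase of the endoplasmic reticulum, was among the enriched genes at 1.22 ± 0.11. More than 50% of the exonic bases of Rnf139 (51.2%) overlap Tatdn1 on the opposite strand. How reads on the shared bases were counted is not established here, so its counts may not be from Rnf139 alone.

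The receptors of the LXR and RXR group all had values above 0, with a median of 0.78, though with the GC trend removed the median was 0.13 and Nr1h2 and Rxrb were below 0. Of the 5, 3 were higher past the test (Nr1h2, Rxra and Rxrb; 28.4% of all tested genes), and none was enriched by the 2-fold rule in edgeR (15.0% of all genes) or in DESeq2. Rxra, the gene of the partner that LXRs need to bind DNA, was the highest at 0.94 ± 0.0737 (adjusted p = 7.01e-14). It passed 2-fold under total count scaling (1.03) and scaling to TPM (1.09), and was at 0.55 with the GC trend removed.

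Among SREBP targets more genes were lower than higher. Of 13 SREBP targets outside cholesterol synthesis, 9 were lower (28.9% of all tested genes) and 3 higher (28.4%) past the test. Among them 4 were depleted (13.0% of all genes) and none was enriched in edgeR or in DESeq2 (15.0% of all genes in edgeR), and the median was −0.41. With the GC trend removed the median was −0.70, 5 were depleted (11.4% of all genes under the same removal) and 1 was enriched (13.3%). The enriched gene was Elovl6, a fatty acid elongase (1.04, adjusted p = 4.2e-14, against 0.66 before, named after its values were seen). Acly, which makes cytosolic acetyl-CoA from citrate, was the lowest, with 11096 counts in the input against 2135 and 2104 in IP replicates 1 and 2 and a log2 fold change of −2.43 ± 0.0624 (5.38-fold lower, adjusted p = 3.2e-28). Acss2 (−1.46), which makes acetyl-CoA from acetate, and the desaturases Scd1 (−1.15) and Fads2 (−1.09) were depleted as well, Fads2 not under total count scaling (−0.99) or scaling to TPM (−0.94).

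Of 11 LXR targets, 9 had enough counts to be tested, 4 were lower past the test (28.9% of all tested genes), 5 did not pass and none was higher in edgeR (28.4% of all genes) or in DESeq2, also at an unadjusted p under 0.05, while 1 was higher under scaling to TPM. Of the 4, Srebf1, Scd1 and Fasn also stand in the lists above, and Lpcat3 does not. The median of the list was −0.44. With the GC trend removed it was −0.66, and 8 of the 9 were below 0 (51.4% of all genes under the same removal). Its 2 depleted genes (13.0% of all tested genes) were Scd1 and Lpcat3 (−1.01 ± 0.0783), a lysophospholipid acyltransferase whose call was lost under total count scaling (−0.91), scaling to TPM (−0.86) and without the filter on low counts (−0.98). Abca1, the exporter that loads cholesterol onto lipoproteins, had the highest value of the list at 0.10 ± 0.287 (adjusted p = 0.803), from 151 counts in the input against 135 and 197 in IP replicates 1 and 2. Abcg5 had no counts, and Abcg8 had 8 counts in IP replicate 2 alone.

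**Figure D5:**
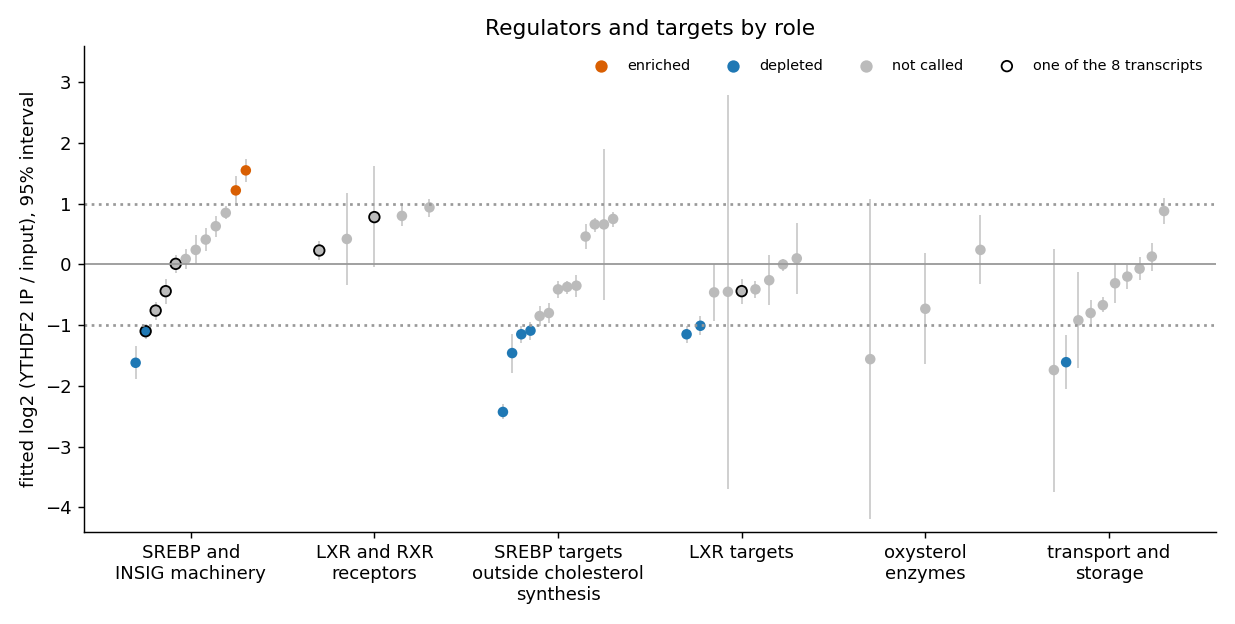
Fitted log2 ratio of IP to input, with 95% intervals, for the genes of 6 roles around the synthesis pathway, ordered by value within each role and coloured by call (genes in 2 lists appear in both). The receptors all lie above 0 and at most 0.94, whereas depleted genes appear among the machinery, both target lists and transport.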

How the data were processed

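The 3 libraries were grouped by their titles. Per the labels and methods, libraries were strand-specific and reads were aligned to mm10 with HISAT2 2.2.1 (submitters' processing notes, which also name fastp 0.19.4 and DESeq2 1.40.2). The methods describe IP from cell lysate and the labels IP of Trizol-extracted RNA, which the counts do not settle. The deposited values are raw counts per gene, made by the authors with featureCounts 2.0.3 per the file headers, with no strand setting and each mate counted on its own (61.4% to 64.7% of counts from 1 to 100 were even), so sampling noise exceeds that of the counts. The table held 0 columns of other samples and 0 rows without a gene name, and all 49997 symbols matched RefSeq of GRCm38.p6.

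Counts were analysed with edgeR 4.0.16 in R 4.3.3 (filterByExpr, TMM factors of 0.957, 1.02 and 1.02, robust glmQLFit, glmQLFTest, Benjamini-Hochberg adjustment over 19601 genes). The 1 residual degree of freedom comes from the 2 IP libraries, with a common dispersion of 0.00538. Each SE is the size of the log2 fold change over the square root of F. Log2 ratios of single libraries used 0.5 added counts. GC trends were removed as a lowess offset (span 0.3). Alternatives were other scalings (RLE, total count, TPM), no filter, halved counts, no mitochondrial genes, GC or length trends removed, a fixed dispersion of 0.1, DESeq2 1.42.0 and each IP library alone. Scripts were tested on simulated data.

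The 8 genes and all lists were chosen with earlier results of these data known. Named were the 8 genes, the synthesis enzymes, and from other lists the called genes and the highest and lowest tested, with exceptions stated. Some genes that the rule names are counted in the lists but not reported here.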

Additional observations from a re-analysis of the deposited data

How the results depend on the processing

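For 43 genes, the 8 included, 515 log2 fold changes were recomputed with a test. Of these, 469 kept their direction and side of the rule for calls (adjusted p and 2-fold), 28 lost the call, 8 gained it and 10 changed sign. Another 86 values came from 1 IP library alone, with no test, and 3 of them changed sign. Among the called genes Hmgcs1 (−0.99 from IP replicate 1) and Lpcat3 (−0.98 from IP replicate 2) were then short of 2-fold. DESeq2, RLE scaling and the quasi-likelihood fit without the robust option (added after seeing the data, as was the GC trend removed with the fixed dispersion) changed no direction and no 2-fold call of these genes. Passing the adjusted p at any fold was less stable: of 35 such genes, the fixed dispersion of 0.1 lost 28, or 30 with the GC trend removed, DESeq2 4, scaling to TPM 4 (and gained 2), total count scaling 3 (gained 1) and removal of the GC trend 3 (gained 3). In DESeq2 4 of the 8 genes passed instead of 6 (Sqle and Nr1h2 did not), and 16 enzymes instead of 19.

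The fixed dispersion lowered the counts of calls without moving directions or medians. With a fixed dispersion of 0.1, assumed because the input has no replicate, 0 of the 8 genes were depleted and 0 passed the adjusted p (1 at an unadjusted p under 0.05), 0 enzymes were enriched and 3 passed the adjusted p, and over all genes 1577 were enriched, 1531 depleted and 3108 passed. With the GC trend removed as well, 1 of the 8 genes was depleted and 1 passed (Srebf2), 0 enzymes were enriched, 1 was depleted and 1 passed, and over all genes 1276 were enriched, 1201 depleted and 2477 passed. The medians there were −0.63 for the 8 genes and −0.29 for the enzymes. Against 11217 genes past the adjusted p at the estimated dispersion, the difference follows from the larger assumed spread.

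Depleted genes among the 8 numbered 1 under total count scaling, 0 under scaling to TPM and 1 with the GC trend removed, and enriched enzymes numbered 2 and 3 under the 2 scalings. TPM scaling raised the median of all genes by 0.15 and the enriched share of calls from 53.6% to 63.9%. The median of the 8 genes was −0.21 under total count scaling, −0.15 under TPM and −0.63 with the GC trend removed. The enzyme median was −0.27, −0.22 and −0.29 under these, −0.40 with the length trend removed, and between −0.37 and −0.33 with 1 IP library left out. For the 8 genes it lay between −0.37 and −0.24 with 1 left out.

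Signs changed, among others, for Scap (−0.64 with the GC trend removed at either dispersion, −0.03 with the length trend removed, −0.04 without IP replicate 2), Nr1h2 (−0.47 with the GC trend removed at either dispersion), Sc5d (0.04) likewise, Ebp (0.05 under TPM), and Abca1 and Cyp7b1 (−0.19 and −0.00 from IP replicate 1 alone, that is, without IP replicate 2, 0.33 and 0.45 from the other alone). The cause was not tested. No paired analysis was possible because the input has no replicate number. Nr1h3 rests on 50 counts in the input, and whether depth limits its test was not tested.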

Other observations

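The genes of cholesterol transport and of oxysterol metabolism belong to no comparison above. Of 10 transport and storage genes, 4 were lower (28.9% of all tested genes) and 1 higher (28.4%) past the adjusted p (edgeR). The median log2 fold change was −0.49, or −0.78 with the GC trend removed, where 2 were depleted (11.4% of all genes under the same removal). Soat1, which esterifies cholesterol for storage, was the 1 depleted gene (13.0% of all genes) at −1.61 ± 0.215, with 461 counts in the input against 174 and 136 in IP replicates 1 and 2. Stard3, a sterol carrier of late endosomes, was the highest at 0.88 ± 0.108 (adjusted p = 5.39e-09). It passed 2-fold under scaling to TPM (1.03), and was at 0.46 with the GC trend removed. Gramd1c had the lowest value, −1.74 ± 0.989, from 28, 13 and 4 counts, and did not pass the test (adjusted p = 0.134). Single IP libraries gave −1.12 (replicate 1) and −2.82 (replicate 2) for it.

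The enzymes that make or remove oxysterols, the ligands of LXR, had low counts in these libraries. Ch25h had 4 counts in the input against 2 and 4 in IP replicates 1 and 2 and was not tested. The other 3 were tested and none passed the adjusted p in edgeR or DESeq2, nor an unadjusted p under 0.05 in these fits, while with the GC trend removed 1 was higher and 1 lower, and with the fixed dispersion 1 was lower, at an unadjusted p under 0.05. Their values ran from −1.56 for Cyp46a1, with 16, 8 and 3 counts, to 0.24 for Cyp7b1, with 149, 151 and 211 counts. For Cyp46a1 single IP libraries gave −1.01 (replicate 1) and −2.42 (replicate 2).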
